A study of Mus musculus with 16 samples.

Results

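The 32 genes described here mark resident macrophages and were read in whole adrenal glands of mice with and without an Rspo1 gain of function. They were chosen by symbol as known macrophage genes, and each symbol was matched to its Ensembl identifier. All 32 were among the 54838 genes of the count table, and all 32 passed the filter on low counts with 18214 genes in all. There were 4 groups of 4 libraries, each library from an individual mouse of 4 weeks on a mixed genetic background: female control, female Rspo1 GOF, male control and male Rspo1 GOF. GOF stands for gain of function. The promoter or Cre line behind the GOF allele and the alleles that the controls carried are not given in the sources used here. R-spondin 1, the product of Rspo1, is a secreted protein that strengthens WNT signalling, and the series asks how sex shapes expression in control and GOF adrenals.

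Resident macrophages settle in tissues before or after birth, renew themselves in place, and clear dying cells and debris. They depend on the receptor CSF1R, which is activated by the ligands CSF1 and IL34, and on the transcription factor PU.1, encoded by Spi1. In many organs a perivascular subset carries the hyaluronan receptor LYVE1 and the haemoglobin scavenger receptor CD163, while other macrophages lie among the parenchymal cells. The adrenal holds macrophages in cortex and medulla. Lyve1 is also a marker of lymphatic endothelium, so in whole glands its transcript has more than 1 possible source. In bulk tissue, fewer cells of a type and less RNA per cell cannot be told apart.

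Library totals ran from 31275146 to 43003968 counts. Rspo1 itself was at 3.20 to 48.2 CPM in the 8 controls and at 354 to 972 CPM in the 8 GOF libraries (CPM, counts per 1000000 counts in the tested genes after TMM scaling). Xist, expressed from the inactive X chromosome, was at 348 CPM or more in the 8 female and at most 0.576 CPM in the 8 male libraries, and the Y-linked gene Ddx3y was at 0 in all 8 female and at 137 to 166 CPM in the 8 male libraries. By these genes the 16 libraries matched their labels for genotype and sex. Of the 24 pairs of libraries within a group, the closest differed by a chi-square of 29.5 per degree of freedom, more than sampling noise gives. Several libraries stood apart. Male GOF 1 was the highest male GOF library for most macrophage genes, so counts from comparisons with male GOF libraries are also given without it where they change. The summed level of 10 hepatocyte genes was 8892 CPM in male control 2 and at most 60.5 CPM in every other library. The summed level of 8 kidney tubule genes reached 1065 CPM in female control 1, was 180 CPM in female control 3 and did not exceed 2.72 CPM elsewhere. The neutrophil list (10 genes) summed to 205 CPM in male GOF 2, 128 CPM in female GOF 1 and 106 CPM in male control 2, and to at most 29.5 CPM in the others. The 10 T and NK cell genes summed to 57.3 CPM in male GOF 2 and to at most 12.5 CPM in the others. Clec4f, a gene of liver macrophages, was at 7.55 CPM in male control 2 and at most 0.154 CPM elsewhere. The part of these cells and of liver or kidney tissue in the macrophage values was not tested; counts without the libraries concerned stand beside the results where they differ.

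Levels can be compared between genes only per transcript length. On the FPKM scale (fragments per kilobase of transcript and per 1000000 mapped fragments, deposited by the authors), the lysozyme gene Lyz2 had the highest mean in all 4 groups, with 95.8 in female controls and 110 in male controls. The C1q genes encode the 3 chains that start the classical complement pathway and are made mainly by macrophages. C1qa followed in male controls with a mean FPKM of 92.1, and its mean in female controls was 47.3. Laptm5, a lysosomal membrane protein of blood cells, had 36.8 and 63.1 FPKM in female and male controls. Csf1r itself had 5.14 and 11.1. The integrin gene Itgam, the folate receptor gene Folr2, the scavenger receptor gene Marco and the phosphatidylserine receptor gene Timd4 were under 1.2 FPKM in both control groups. Itgam, which is high in monocytes and neutrophils, was thus among the lowest of the list.

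**Figure D1:**
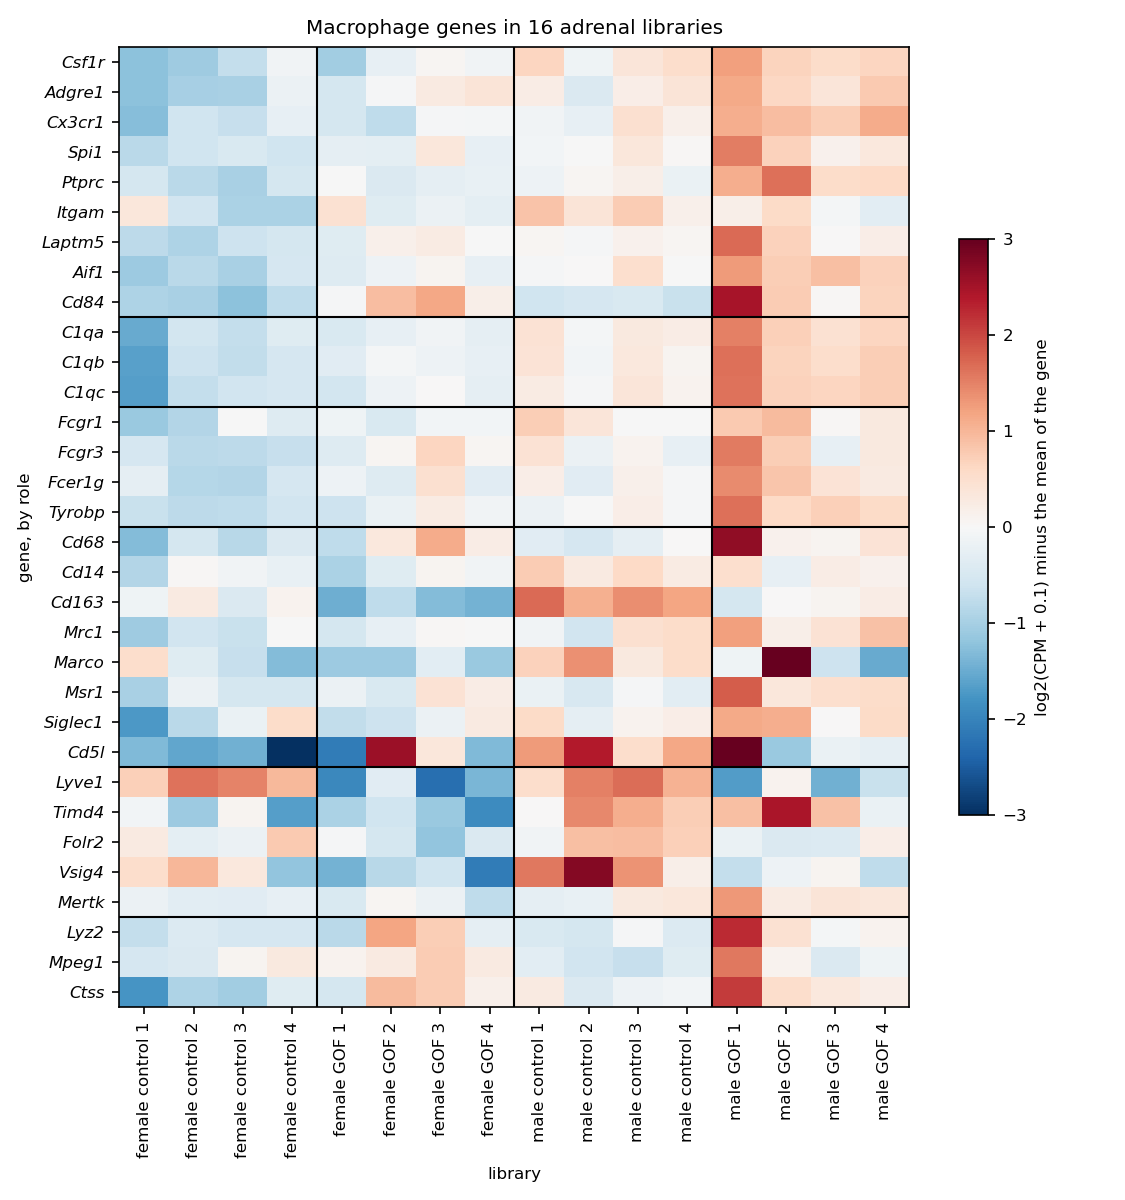
Heat map of the 32 macrophage genes (rows, grouped by role, black lines between roles) in 16 libraries (columns, black lines between the 4 groups). Colour is log2(CPM + 0.1) minus the mean of the gene over the 16 libraries; Lyve1 and Cd163 are low in the GOF columns of both sexes, and male GOF 1 is high for most other genes.

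A share of the macrophage genes was higher in males than in females without GOF. In control adrenals, 13 of the 32 genes were higher in males and 0 lower, at an adjusted p under 0.05 (edgeR quasi-likelihood test, Benjamini-Hochberg over all genes). Among all genes tested, 13.5% were called higher and 9.89% lower in this comparison. The median log2 difference of the 32 genes was 0.76, against 0.08 over all genes tested, and 30 of 32 were above 0. The 13 covered the receptors Csf1r, Cx3cr1 and Ptprc, the macrophage antigens Adgre1 and Itgam, the cytoskeletal gene Aif1, all 3 C1q genes, the Fc receptor gene Fcgr1 with the adaptor gene Tyrobp, and the surface receptors Cd14 and Cd163.

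Csf1r was at 15.8, 17.8, 22.8 and 34.5 CPM in the female controls 1 to 4. The male controls 1 to 4 had 58.1, 34.1, 48.4 and 53.7 CPM. The ranges met only at female control 4 and male control 2, and the log2 difference was 1.10 (SE 0.271, adjusted p = 0.0103). C1qa, the first C1q chain, had 29.5, 57.4, 51.3 and 65.6 CPM in female controls and 113, 80.7, 102 and 97.4 CPM in male controls. These groups did not overlap (log2 difference 0.95, SE 0.238, adjusted p = 0.0110), and C1qb and C1qc, which neighbour C1qa on chromosome 4, differed by 1.01 and 0.98. Cd163 showed the highest difference of the 13. Its levels were 4.23, 5.62, 3.42 and 5.02 CPM in female controls and 15.4, 9.74, 12.4 and 10.6 CPM in male controls, a log2 difference of 1.40 (SE 0.229, adjusted p = 0.000598). Aif1, an actin-binding protein known as IBA1 and used to stain macrophages, was at 2.91, 3.55, 3.17 and 4.40 CPM against 6.12, 6.35, 8.996 and 6.25 CPM (log2 difference 0.98, SE 0.190, adjusted p = 0.00203). In both of these genes every male control was above every female control. Adgre1, which encodes the F4/80 antigen, was at 5.34, 6.26, 6.37 and 11.3 CPM in female and 14.9, 9.36, 14.5 and 16.7 CPM in male controls, with overlap at male control 2 (log2 difference 0.92, SE 0.265, adjusted p = 0.0215). Itgam (CD11b) was low throughout, at 2.02, 1.03, 0.770 and 0.763 CPM against 2.92, 2.08, 2.75 and 1.77 CPM, and overlapped at female control 1 (log2 difference 1.05, SE 0.339, adjusted p = 0.0369).

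Promoters of C1qb, C1qc, Aif1, Cd163 and Vsig4 are shown because the first 4 of these genes were higher in male controls, and Aif1, Cd163 and Vsig4 carry both directions of the GOF change described further on. No promoter of C1qa is shown. PU.1 binds purine-rich DNA with a GAGGAA core. Promoters were taken from RefSeq on GRCm38.p6, from 250 bases before to 50 after the transcription start, for 23 of the 32 genes (26 promoters). GAGGAA on either strand was found in 16 of the 26 promoters (61.5%) and in 28.3% of the 32851 promoters in the table. The longer GAGGAAGT, which contains GAGGAA, was found in 2 of the 26 (Ctss and C1qc) and in 3.20% of all. The 250 bases before the start are printed below 5′ to 3′ on the gene's strand, with each GAGGAA or its reverse complement in capitals. A match describes the letters only.
C1qb, chr4:136886201-136886450, minus strand: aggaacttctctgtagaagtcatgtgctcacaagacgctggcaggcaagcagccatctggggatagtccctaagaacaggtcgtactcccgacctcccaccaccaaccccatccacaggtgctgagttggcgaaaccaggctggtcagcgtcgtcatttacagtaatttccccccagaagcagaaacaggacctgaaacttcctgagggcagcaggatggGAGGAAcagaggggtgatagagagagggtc
C1qc, chr4:136892915-136893164, minus strand: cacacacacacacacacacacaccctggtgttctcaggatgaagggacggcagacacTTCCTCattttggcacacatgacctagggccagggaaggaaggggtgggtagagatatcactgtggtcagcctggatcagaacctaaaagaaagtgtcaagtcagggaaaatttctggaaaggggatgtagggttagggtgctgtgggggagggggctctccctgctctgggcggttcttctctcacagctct
Aif1, chr17:35176053-35176302, minus strand: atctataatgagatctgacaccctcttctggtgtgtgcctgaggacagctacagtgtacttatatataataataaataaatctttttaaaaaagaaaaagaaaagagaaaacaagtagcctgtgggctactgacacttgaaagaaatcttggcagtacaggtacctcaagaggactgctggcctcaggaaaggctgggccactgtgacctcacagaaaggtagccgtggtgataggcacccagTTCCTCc
Cd163, chr6:124304401-124304650, plus strand: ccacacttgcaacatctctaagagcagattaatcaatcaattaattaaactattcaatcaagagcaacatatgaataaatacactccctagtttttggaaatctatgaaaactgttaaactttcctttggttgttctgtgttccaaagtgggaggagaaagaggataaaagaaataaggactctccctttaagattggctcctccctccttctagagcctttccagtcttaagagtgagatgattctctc
Vsig4, chrX:96293439-96293688, minus strand: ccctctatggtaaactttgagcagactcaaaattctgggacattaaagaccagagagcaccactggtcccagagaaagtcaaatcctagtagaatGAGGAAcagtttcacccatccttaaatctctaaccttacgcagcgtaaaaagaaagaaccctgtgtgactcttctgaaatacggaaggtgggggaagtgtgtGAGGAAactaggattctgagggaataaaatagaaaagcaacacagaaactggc

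C1qb, C1qc and Aif1, all higher in male controls, had 1 match each in this stretch. Cd163, with the highest difference among the genes called in controls, had 0, and Vsig4, described with the GOF change, had 2.

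Lyve1 did not share this pattern. It was at 8.41, 15.98, 14.4 and 10.1 CPM in female controls and at 7.35, 14.6, 16.4 and 10.5 CPM in male controls, and the means of both groups were 12.2 CPM (SD 3.56 and 4.06, n = 4 each). Genes of lysosomes and granules also did not pass the test: the log2 differences were 0.18 for Lyz2, -0.39 for the pore-forming protein gene Mpeg1 and 0.86 for the protease gene Ctss. Cd68, a lysosomal glycoprotein, was at 6.14, 10.6, 8.53 and 11.2 CPM in female and 11.9997, 10.8, 12.5 and 15.3 CPM in male controls (log2 difference 0.47, SE 0.528, adjusted p = 0.556). Without female control 3, which had kidney transcripts, 7 of 32 genes were higher in males, and 7.40% of all genes. The count was 8 without female control 1, female control 2 or male control 3, against 11.5%, 9.83% and 10.7% of all genes. Without female control 1 and male control 2 together it was 9, against 8.73%. With the range of animal numbers, described further on, as a covariate it was 10, against 3.46% of all genes. With male GOF 1 left out of the fit, 17 were higher and 0 lower, against 12.5% and 10.2% of all genes. Csf1r, Aif1, Cd163 and the 3 C1q genes stayed past the threshold in all 16 fits that left out 1 library each.

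Between the sexes in GOF adrenals, all 32 genes had a log2 difference above 0 with all libraries, and 26 without male GOF 1. There, 18 of 32 genes were higher in males and 0 lower, while 13.3% of all genes tested were called higher and 16.3% lower. The median log2 difference was 0.92, against 0.03 over all genes tested. The libraries of the 2 sexes did not overlap for 13 of the 32 genes in this direction, which was the case for 13.4% of all genes tested. Without male GOF 1, 12 genes were higher and 0 lower in males (11.2% and 13.6% of all genes) and the median was 0.65. The 6 genes that were then below 0 were Cd84, Cd68, Cd5l, Lyz2 (-0.22), Mpeg1 (-0.50) and Ctss (-0.08), none of them called with or without that library. The count was 15 without male GOF 2 and 13 without female GOF 1 (13.2% and 11.7% of all genes). It was 12 with the range of animal numbers as a covariate (3.35% of all genes). Over the 16 fits that left out 1 library each it was between 12 and 21, against 10.3% to 13.7% of all genes.

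Csf1r was at 18.01, 31.6, 39.2 and 34.5 CPM in the female GOF libraries 1 to 4. It was at 87.3, 59.2, 54.9 and 58.3 CPM in the male GOF libraries 1 to 4, so that every male was above every female (log2 difference 1.08, SE 0.270, adjusted p = 0.00787). Leaving out male GOF 1 gave 0.91 (adjusted p = 0.0282). The fractalkine receptor gene Cx3cr1 had 18.2, 15.3, 25.7 and 25.3 CPM in female and 56.0, 49.6, 43.5 and 56.4 CPM in male GOF libraries (log2 difference 1.28, SE 0.220, adjusted p = 0.000587). For Ptprc, which encodes the pan-leukocyte antigen CD45, the values were 17.1, 12.7, 14.3 and 14.8 CPM against 36.9, 54.2, 25.1 and 25.9 CPM (log2 difference 1.27, SE 0.208, adjusted p = 0.000415). The male GOF library with the highest Ptprc level was number 2, which also had the highest T and NK cell and neutrophil sums. In GOF, both genes kept their call in all 16 fits that left out 1 library.

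C1qa was at 60.9, 70.4, 78.0 and 69.6 CPM in female GOF and at 241, 139, 116 and 133 CPM in male GOF libraries (log2 difference 1.17, SE 0.239, adjusted p = 0.00200). Timd4, a receptor by which macrophages hold dying cells, was low and did not overlap: 0.585, 0.779, 0.508 and 0.257 CPM in females against 2.36, 7.09, 2.33 and 1.06 CPM in males (log2 difference 2.58, SE 0.589, adjusted p = 0.00419). Mrc1, the mannose receptor CD206, was at 17.1, 20.7, 25.4 and 24.4 CPM in females and 58.2, 28.0, 33.5 and 45.2 CPM in males (log2 difference 0.91, SE 0.282, adjusted p = 0.0242); without male GOF 1 the adjusted p was 0.0845. Marco had the highest fitted log2 difference, 4.41, but its level was 12.7 CPM in male GOF 2 and at most 0.318 CPM in the other male GOF libraries. Without male GOF 2 that difference was 0.36 (adjusted p = 0.717).

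In all, 10 genes were higher in males in both genotypes: Csf1r, Cx3cr1, Ptprc, Aif1, C1qa, C1qb, C1qc, Fcgr1, Tyrobp and Cd163. They were 10 of the 13 called in controls and of the 18 called in GOF, and the libraries of these comparisons were separate; 6.06% of all genes tested were higher in males in both genotypes. Leaving out male GOF 1 gave 9, all but Fcgr1, against 4.97% of all genes. Of the 16 fits that left out 1 library, 8 lost Tyrobp in controls, 4 lost Fcgr1, 4 lost Ptprc and 3 lost Cx3cr1. In GOF 7 of these fits lost Fcgr1. The titles carry animal numbers that fall into 4 ranges, which the labels do not explain. Only the range with libraries of all 4 groups holds both sexes, so sex and range can be told apart only there. In the range that holds libraries of all 4 groups, each female group has only 1 library, and the female control there is female control 1 with its kidney transcripts, while the male GOF libraries there are numbers 1 and 2. The log2 ratio of males to females there was above 0 for 31 of 32 genes in controls (55.4% of all genes tested) and for 30 of 32 in GOF (51.5% of all genes), which with 1 library an arm is a description only. The endothelial list moved with the sexes in GOF adrenals: 6 of its 7 genes were higher in males (2 without male GOF 1), and its sum ranged from 610 to 677 CPM in female and from 844 to 1092 CPM in male GOF libraries. In controls 0 of these 7 were called. Of the 10 T and NK cell genes, 5 were higher in male GOF than in female GOF adrenals (7 without male GOF 1), and their sum was 5.29 to 10.6 CPM in female and 9.11 to 57.3 CPM in male GOF libraries. All 12 cell cycle genes were lower in male than in female GOF adrenals, with or without male GOF 1, and 10 of the 12 rose in female GOF. Of 7 mast cell genes tested, 6 were lower in male than in female GOF adrenals and 5 fell in male GOF, in both cases with or without male GOF 1. The part of these lists in the macrophage difference was not tested.

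**Figure D2:**
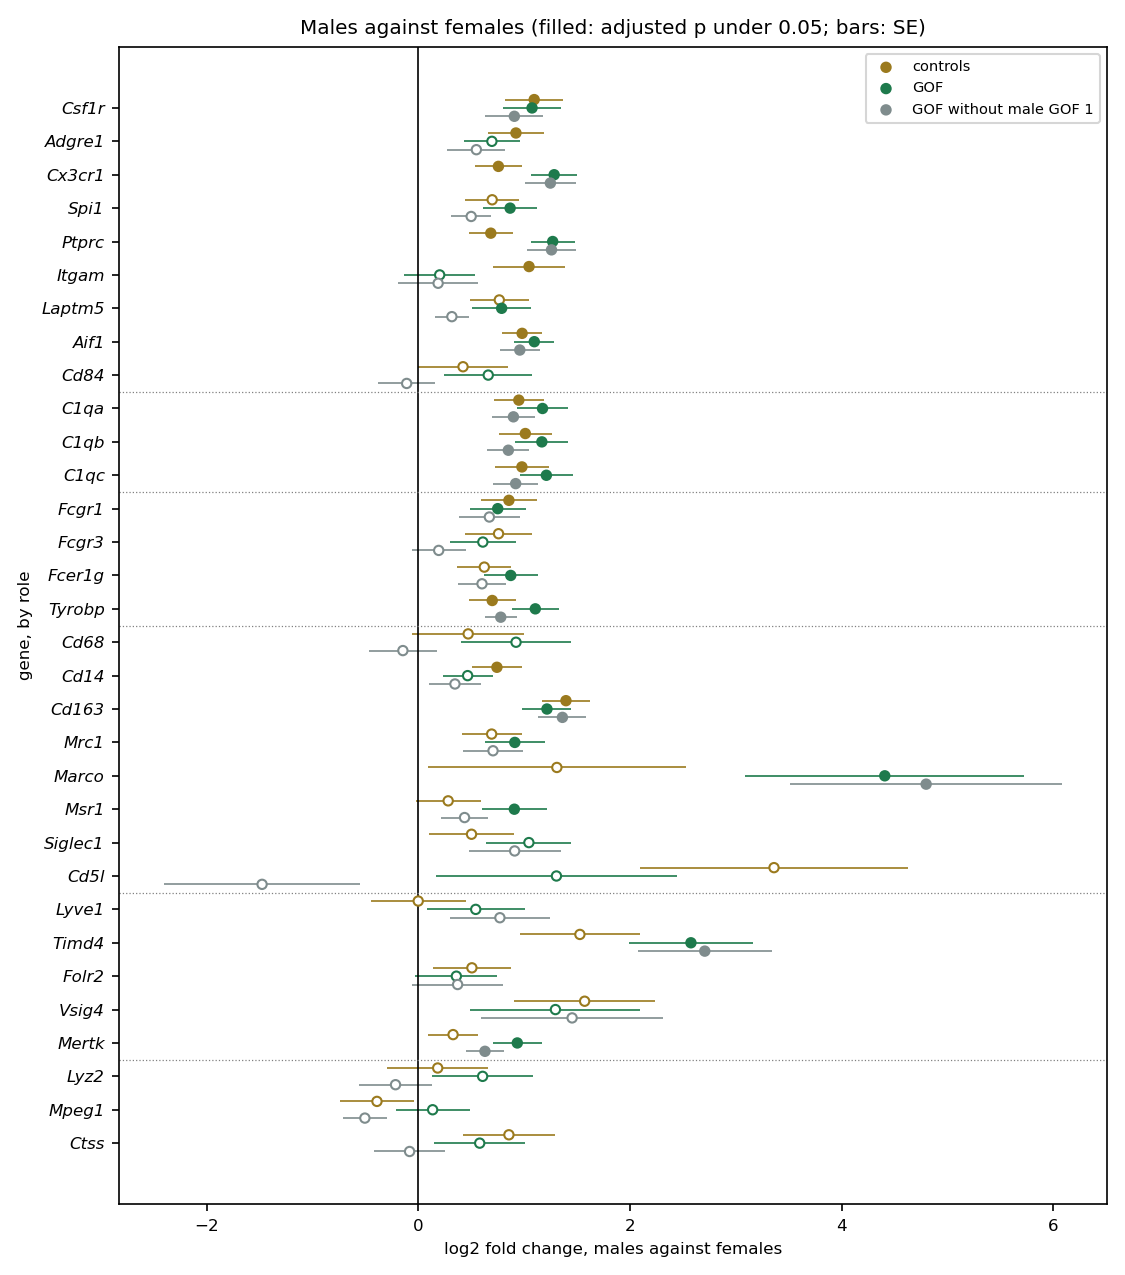
Log2 fold change of males against females (x axis) for each of the 32 genes (y axis, grouped by role), in controls, in GOF, and in GOF without male GOF 1; bars are standard errors and filled points passed an adjusted p of 0.05. Most points lie right of 0, with 13 filled in controls, 18 in GOF and 12 in GOF without male GOF 1.

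Between GOF and control, macrophage genes were called in both directions. The share called lower was below that of all genes in both sexes, while the share called higher changed with the libraries fitted. In females, 6 of 32 genes were higher and 3 lower in GOF than in control adrenals; 19.0% of all genes tested were called higher and 20.6% lower, so the 6 (18.8%) were at the background share and the 3 (9.38%) below it. The 3 that fell were Lyve1, Cd163 and the complement receptor gene Vsig4. The 6 that rose were Cd84, a receptor of the SLAM family on leukocytes, with Ctss, Adgre1, the Fc receptor gene Fcgr3, Laptm5 and Aif1. The median log2 change of the 32 genes was 0.48, against 0.05 over all genes tested, and 24 of 32 were above 0. In males, 15 genes were higher and 4 lower, with 15.2% of all genes called higher and 21.8% lower, and the median was 0.73 against 0.01. The 15 (46.9%) were above the background share and the 4 (12.5%) below it. Of the 32 genes, 26 had a log2 change above 0 in males, and 25 without male GOF 1. Without male GOF 1, 9 genes were called in males (28.1%), 6 higher (18.8%) and 3 lower (9.38%), with a median of 0.39. Of all genes, 34.7% were then called, 13% higher and 21.7% lower. In the 2 ranges of animal numbers that hold male libraries of both genotypes, the median log2 ratio of the 32 genes was 0.98 (male GOF 1 and 2 against 3 controls) and 0.19 (the other male GOF libraries against 1 control); in females it was 0.47 and 0.50.

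Lyve1, on chromosome 7 (110850607 to 110863239, minus strand, GENCODE M21 on GRCm38), showed the deepest fall in females. Its levels in female controls, given above, were 8.41 to 15.98 CPM, and the female GOF libraries 1 to 4 had 1.26, 4.01, 0.986 and 1.89 CPM. Every GOF library was below every control, and the log2 change was -2.58 (SE 0.480, adjusted p = 0.000734), a 5.97-fold lower level. The male GOF libraries had 1.51, 5.49, 1.80 and 3.14 CPM, below male controls at 7.35 to 16.4 CPM (log2 change -2.03, SE 0.469, adjusted p = 0.00360). The fall passed the threshold in both sexes in all 16 fits that left out 1 library. Within the ranges of animal numbers that hold both genotypes, the log2 changes were -2.65 and -2.39 in females and -1.84 and -2.05 in males.

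Cd163, on chromosome 6 (124304656 to 124330527, plus strand), was at 1.61, 2.68, 1.82 and 1.66 CPM in female GOF libraries, below all female controls (3.42 to 5.62 CPM). The log2 change was -1.23 (SE 0.232, adjusted p = 0.000774). In male GOF libraries it was at 3.15, 4.69, 4.88 and 5.38 CPM, below all male controls (9.74 to 15.4 CPM), with a log2 change of -1.41 (SE 0.229, adjusted p = 0.000227). Male GOF adrenals were thus at 4.53 ± 0.959 CPM (SD, n = 4), close to the 4.57 ± 0.956 CPM (SD, n = 4) of female controls. These calls too held in all 16 fits.

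Vsig4, a complement receptor of tissue macrophages whose promoter with 2 GAGGAA matches is printed above, rested on few counts, from 0 to 94 per library. In males it was at 1.17, 2.75, 0.989 and 0.381 CPM in controls and at 0.159, 0.286, 0.351 and 0.151 CPM in GOF, without overlap (log2 change -2.46, SE 0.697, adjusted p = 0.0127). Without male control 2, the library with liver transcripts, the adjusted p was 0.0580. In females it was at 0.512, 0.742, 0.431 and 0.0881 CPM in controls and 0.0585, 0.137, 0.179 and 0 CPM in GOF, which overlapped at female control 4 (log2 change -2.18, SE 0.781, adjusted p = 0.0376), and 6 of the 16 fits lost the call. Folr2 fell in males at an adjusted p just under 0.05 (log2 change -0.99, SE 0.374; 0.0832 without male GOF 1), and 11 of the 16 fits lost it. Its log2 change in females was -0.84 (adjusted p = 0.0946).

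Other cell markers moved with Lyve1. Of 6 lymphatic and sinusoidal endothelial genes tested besides Lyve1, 0 rose and 3 fell in each sex, namely Pdpn, Reln and Mmrn1; without male GOF 1, Mmrn1 did not pass in males (adjusted p = 0.0816). Pdpn, a lymphatic surface glycoprotein, averaged 2.46 CPM in control and 0.877 CPM in GOF females, and 5.07 and 1.33 CPM in the male groups. Prox1, the lymphatic master regulator, averaged 129 CPM in female controls and 114 in female GOF, and 71.5 and 64.4 CPM in males, and was not called. Flt4, the receptor VEGFR3, averaged 44.1 and 42.5 CPM in females and 44.9 and 57.3 CPM in males and was not called either. The list's summed level was 159 to 205 CPM in female control and 157 to 170 CPM in female GOF libraries, and 109 to 146 and 113 to 145 CPM in male control and GOF libraries. All 8 adrenal medulla genes fell in both sexes, and their sum was 4775 to 11465 CPM in the 8 controls and 198 to 883 CPM in the 8 GOF libraries. The part of lymphatic vessels and of the medulla in the fall of Lyve1 and Cd163 was not tested.

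**Figure D3:**
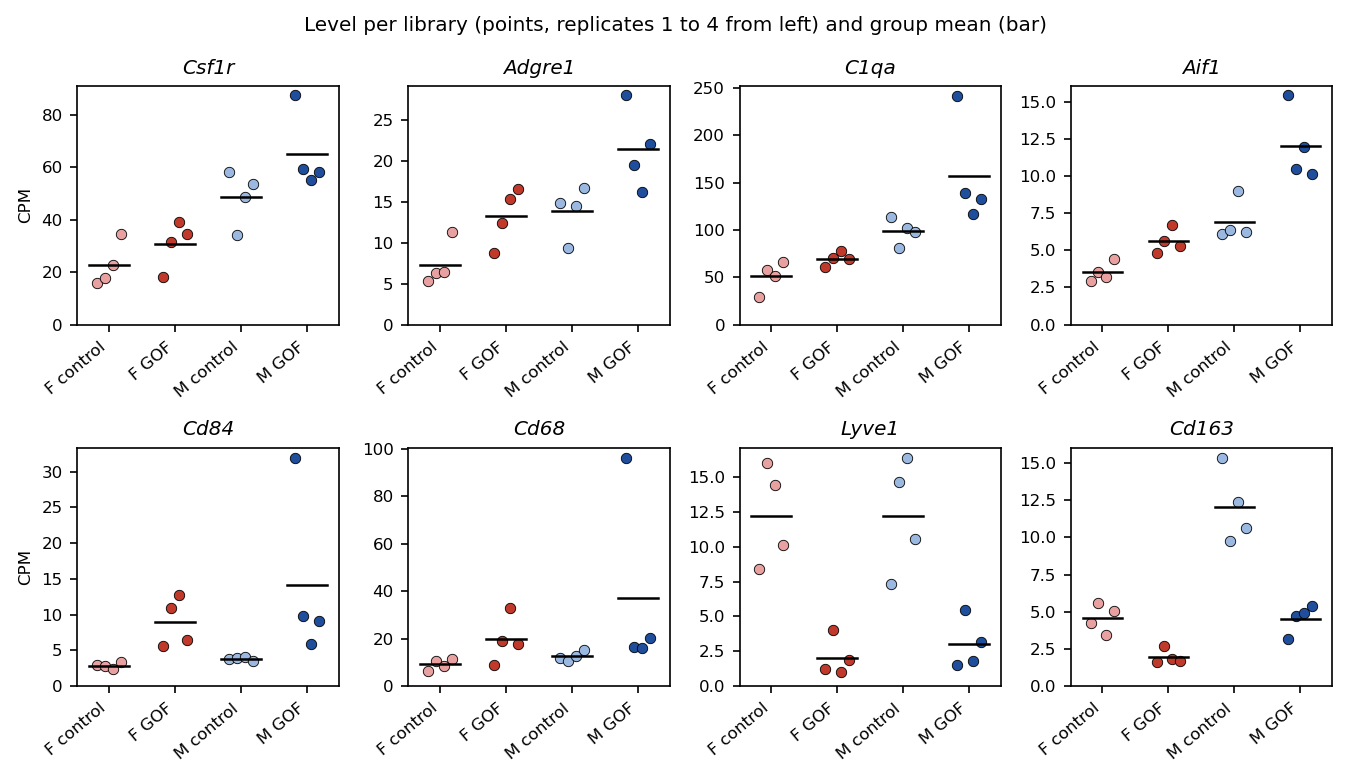
CPM (y axis, linear from 0) of 8 macrophage genes in each library by group (F, female; M, male); points are libraries, replicates 1 to 4 from left, and bars are means of 4. Lyve1 and Cd163 points of GOF lie below all control points of the same sex, Cd84 and Aif1 points lie above, and the topmost male GOF point is male GOF 1 in each panel but Lyve1 and Cd163.

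Cd84 rose in both sexes. It was at 2.94, 2.84, 2.37 and 3.32 CPM in female controls and at 5.61, 10.97, 12.8 and 6.46 CPM in female GOF libraries (log2 change 1.64, SE 0.427, adjusted p = 0.00725). In males the controls had 3.75, 3.98, 4.11 and 3.53 CPM and the GOF libraries 31.9, 9.83, 5.86 and 9.06 CPM (log2 change 1.88, SE 0.428, adjusted p = 0.00325). The groups did not overlap in either sex. Without male GOF 1 the male change was 1.08 (adjusted p = 0.00696), and no fit that left out 1 library lost the call in either sex. Aif1 rose to 4.82, 5.63, 6.69 and 5.29 CPM in female GOF (log2 change 0.68, SE 0.189, adjusted p = 0.0108) and to 15.4, 10.5, 11.9 and 10.1 CPM in male GOF libraries (0.79, SE 0.187, adjusted p = 0.00419). Every GOF library was above every control of its sex; without female GOF 3 the adjusted p in females was 0.0505. Laptm5 was called higher in both sexes (0.73 and 0.76), but 13 of 16 fits lost the call in each sex.

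In all, 3 genes rose in both sexes (Cd84, Aif1 and Laptm5) and 3 fell in both (Lyve1, Cd163 and Vsig4). The 3 that rose were 3 of the 6 higher in females and of the 15 higher in males, and the 3 that fell were all 3 lower in females and 3 of the 4 lower in males. Among all genes tested, 7.19% were higher in both sexes and 14.5% lower in both.

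The other 3 genes that rose in females were less uniform. Fcgr3 was at 6.68, 5.42, 5.48 and 5.84 CPM in controls and at 7.25, 9.92, 14.96 and 9.98 CPM in GOF, without overlap (log2 change 0.84, SE 0.315, adjusted p = 0.0450), and 11 of 16 fits lost the call. Adgre1 was at 8.71, 12.4, 15.4 and 16.6 CPM in GOF, and female control 4 lay within this range (log2 change 0.86, SE 0.265, adjusted p = 0.0187). Ctss, a lysosomal cysteine protease, was at 21.1, 37.9, 35.0 and 55.7 CPM in controls and 49.8, 139, 122 and 79.3 CPM in GOF, again overlapping at female control 4 (log2 change 1.38, SE 0.438, adjusted p = 0.0219). Of the 16 fits that left out 1 library, 5 lost the call of Adgre1 and 4 that of Ctss. In females Csf1r (0.44), C1qa (0.45), Ptprc (0.48), Mrc1 (0.37), Itgam (0.39) and Cd68 (1.11) had positive log2 changes that did not pass the test, and Timd4 had -0.62. Cd68 was at 8.95, 19.0, 32.8 and 17.9 CPM in female GOF libraries.

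The count in females depended on which libraries entered the fit; the cause was not tested. Without male GOF 1, a library of the other sex, 13 genes were higher and 3 lower in female GOF (15.5% and 21.9% of all genes), while the median log2 change was 0.44. The count of higher genes was 1 without female GOF 3, 2 without female control 1 or female control 3, and 3 without female GOF 2, female GOF 4 or female control 2. It was 7 without female GOF 1. In these 7 fits 11.8% to 16.7% of all genes were called higher, so counts of 1 to 3 members lay below that share. Fitting only the female groups gave 10, against 16.8% of all genes.

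In males, 15 genes rose: Cd84, Cd68, Lyz2, the scavenger receptor gene Msr1, Ptprc, Mpeg1, Tyrobp, Cx3cr1, the 3 C1q genes, the Fc receptor chain gene Fcer1g, Aif1, Laptm5 and Spi1. When male GOF 1 was left out, 6 of these stayed past the threshold, namely Cd84, Ptprc, Cx3cr1, Msr1, Aif1 and Tyrobp. Ptprc, at 15.4, 17.8, 19.4 and 15.01 CPM in male controls and 25.1 to 54.2 CPM in male GOF, rose by 1.07 on the log2 scale (SE 0.207, adjusted p = 0.00100) and by 1.03 without male GOF 1. Cx3cr1 rose from 24.2, 22.1, 36.8 and 29.2 CPM in male controls to 43.5 to 56.4 CPM (log2 change 0.87, SE 0.218, adjusted p = 0.00604; 0.81 without male GOF 1). Msr1, a receptor for modified lipoproteins, was at 6.12, 5.03, 6.89 and 5.57 CPM in controls and at 25.0, 8.92, 9.97 and 10.3 CPM in GOF (log2 change 1.1997, SE 0.308, adjusted p = 0.00704; 0.70 and 0.0248 without male GOF 1). Tyrobp, the adaptor DAP12 through which TREM2 signals, was at 16.03, 17.7, 20.5 and 17.5 CPM in controls and 57.0, 27.5, 29.4 and 26.7 CPM in GOF (log2 change 0.97, SE 0.223, adjusted p = 0.00346; 0.61 and 0.00718 without male GOF 1). For each of these 4 genes every male GOF library was above every male control. Without male control 2, 6 genes were higher and 2 lower in males (10.4% and 17.8% of all genes), and without male GOF 2 the counts were 13 and 4 (11.9% and 20.4%).

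Cd68 was the clearest case of a rise that rested on male GOF 1. Its male GOF libraries 1 to 4 had 96.1, 16.5, 16.2 and 20.2 CPM, all above male controls at 10.8 to 15.3 CPM (log2 change 1.56, SE 0.532, adjusted p = 0.0328). Leaving that library out gave 0.46 (SE 0.317, adjusted p = 0.278). Lyz2 was at 885 CPM in male GOF 1 and 180 to 261 CPM in the other 3, against 131 to 183 CPM in male controls (log2 change 1.36; 0.51 and adjusted p = 0.269 without male GOF 1). The C1q genes did not overlap between genotypes in males with or without male GOF 1, yet the adjusted p without it was 0.163 for C1qa, 0.110 for C1qb and 0.0888 for C1qc. Csf1r, at 34.1 to 58.1 CPM in male controls, had a log2 change of 0.42 (SE 0.267, adjusted p = 0.236), Adgre1 of 0.63 (adjusted p = 0.0717), Mrc1 of 0.59 (adjusted p = 0.115) and Itgam of -0.46 (adjusted p = 0.299). Timd4 had 0.43 with all libraries and -0.33 without male GOF 2.

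**Figure D4:**
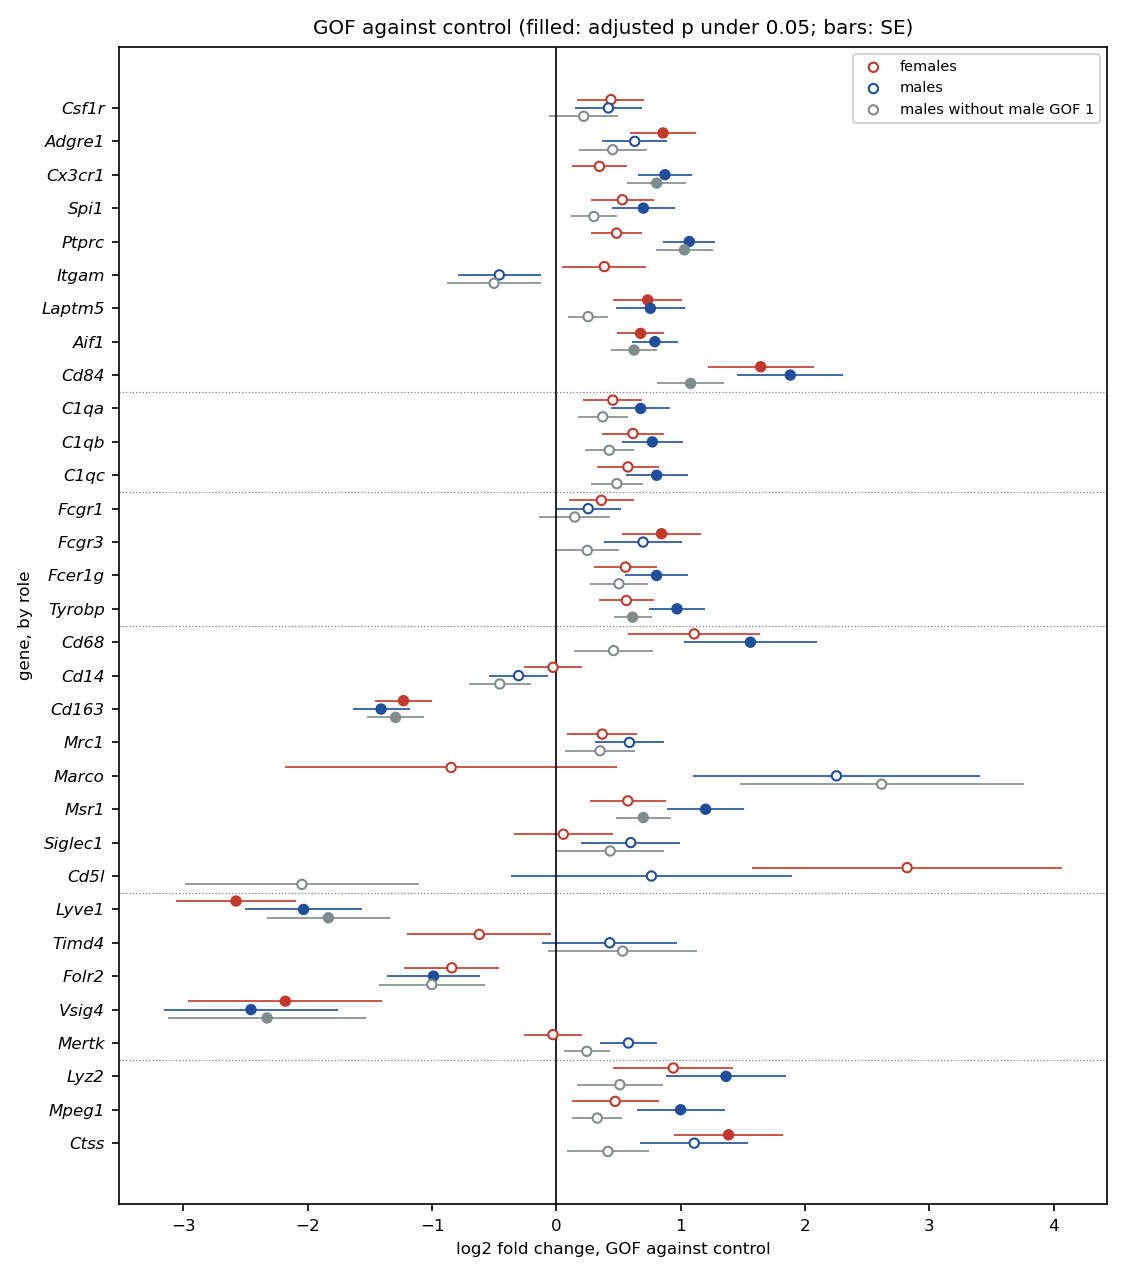
Log2 fold change of GOF against control (x axis) for each of the 32 genes (y axis, grouped by role) in females, in males and in males without male GOF 1; bars are standard errors and filled points passed an adjusted p of 0.05. Lyve1, Cd163 and Vsig4 are filled left of 0 in all 3 fits, and Cd84 and Aif1 are filled right of 0 in all 3.

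The ratio of male GOF 1 to the median of the other 3 male GOF libraries differed from gene to gene. It was 21.5 for Cd5l, a secreted protein of tissue macrophages, 5.81 for Cd68, 4.35 for Lyz2, 3.52 for Cd84, 3.47 for Ctss and 3.28 for Mpeg1. It was 1.498 for Csf1r, 1.43 for Adgre1 and 1.13 for Cx3cr1. It was below 1 for Cd163 (0.646), Vsig4 (0.557) and Lyve1 (0.481). Thus the library was high in lysosomal and granule transcripts more than in Csf1r. Gpnmb, a glycoprotein of lipid-laden macrophages that is no member of the list, was at 403 CPM in male GOF 1 and at 8.89 to 27.0 CPM in the other male GOF libraries, and at 10.6, 125, 212 and 62.5 CPM in female GOF against 2.62 to 9.86 CPM in female controls.

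**Figure D5:**
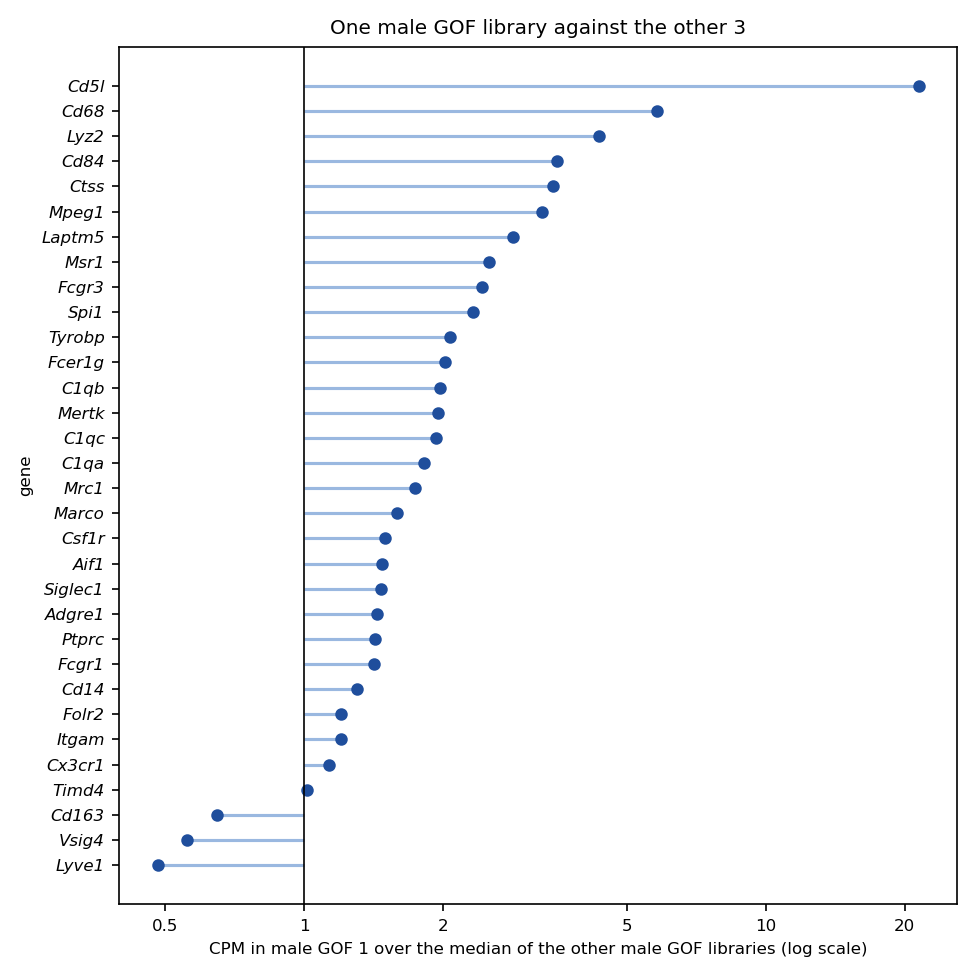
CPM in male GOF 1 divided by the median CPM of the other 3 male GOF libraries (x axis, log scale) for each of the 32 genes (y axis, sorted). The vertical line marks a ratio of 1; Cd5l stands at 21.5, Cd68 at 5.81 and Csf1r at 1.498, while Cd163, Vsig4 and Lyve1 lie left of the line.

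The change with genotype was compared between the sexes by an interaction term. None of the 32 genes was called (0 higher and 0 lower by edgeR, DESeq2 and limma), 0 had an unadjusted p under 0.05 by edgeR, and 4.21% of all genes tested were called. With male GOF 1 left out, 0 of the 32 were called again, against 2.75% of all genes. The interval of this difference was wide. On the log2 scale the 95% interval was -0.76 to 0.72 for Csf1r, -0.81 to 0.45 for Cd163, -0.72 to 1.80 for Lyve1 and -0.998 to 1.90 for Cd68. No member's response was thus shown to differ between males and females, and a like response is not shown either.

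The falls and rises were also read against Csf1r in the same library. There were 58.8 ± 25.0 Lyve1 counts per 100 Csf1r counts in female controls and 6.92 ± 4.28 in female GOF (SD, n = 4 each), and 27.2 ± 13.6 and 4.92 ± 3.26 in male controls and male GOF. For Cd163 the ratios were 21.9 ± 8.51 and 6.72 ± 2.31 in females and 25.1 ± 3.74 and 7.41 ± 2.59 in males. Thus the sex difference of Cd163 in controls was not seen relative to Csf1r, and the fall with GOF was. For Cd84 they were 13.6 ± 4.32 and 29.3 ± 7.23 in females and 8.30 ± 2.42 and 19.8 ± 11.4 in males. Without male GOF 1 the male GOF mean for Cd84 was 14.3, and male GOF 3 (10.7) was below male control 2 (11.7). For C1qa it stayed near 231 ± 63.4 and 241 ± 66.1 in females and 206 ± 23.6 and 238 ± 27.5 in males. These are ratios of counts, which also reflect gene length, and are compared here only within a gene.

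Across the 16 libraries, after subtracting the mean of each group, 19 of the 32 members had a correlation above 0.5 with the mean of the other 31, and 14 without male GOF 1 (n = 15). The correlation was 0.94 for Laptm5, 0.91 for Lyz2 and Cd84, 0.88 for Spi1 and 0.87 for Ctss. It was 0.61 for Csf1r and 0.52 for Adgre1. Lyve1 (-0.08), Cd163 (-0.24), Folr2 (-0.31), Vsig4 (-0.10), Itgam (-0.11), Marco (0.02) and Timd4 (0.06) did not follow the rest, and Ptprc and Cx3cr1 were at 0.28 and 0.29. The points share their library scaling, and without male GOF 1 Cd163 and Lyve1 were at 0.11 and 0.23 and Laptm5 at 0.90. Siglec1, a sialic acid receptor of tissue macrophages, and Cd5l were called in none of the 4 comparisons or the interaction. Cd5l varied from 0.235 to 45.4 CPM, with 15.7 CPM in female GOF 2 and 13.9 CPM in male control 2. It was at 0.235 to 0.970 CPM in female controls and at 3.77 to 13.9 CPM in male controls, without overlap. Its fitted log2 difference there, 3.36, was the highest of the 32 genes, though not called. Mertk, a receptor tyrosine kinase for the uptake of dying cells, was called only in GOF, higher in males (0.94, adjusted p = 0.00741).

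Genes around these macrophages were read from further lists. Among 19 growth factors, receptors and lineage regulators, 4 rose and 3 fell in female GOF and 6 rose and 1 fell in male GOF (3 and 1 without male GOF 1). The shares of all genes called in each sex, given above, hold for these lists too. Both ligands of CSF1R changed. Csf1 was at 26.4, 26.7, 36.3 and 34.9 CPM in female controls and 48.7, 53.1, 47.3 and 41.6 CPM in female GOF, a rise of 0.62 on the log2 scale (SE 0.117, adjusted p = 0.000823). In males it went from 45.2, 47.4, 42.3 and 55.1 CPM to 65.5, 64.9, 56.3 and 60.0 CPM (0.38, SE 0.116, adjusted p = 0.0198; 0.0623 without male GOF 1). Csf1 was higher in males than in females in controls (0.61, adjusted p = 0.00190) and in GOF (0.37, adjusted p = 0.0251; 0.0606 without male GOF 1). Il34 went the other way in females, from 53.8, 52.4, 37.3 and 34.8 CPM in controls to 5.09, 3.89, 4.48 and 3.52 CPM in GOF (log2 change -3.39, SE 0.284, adjusted p = 1.44e-06). In males it was at 9.08, 13.3, 16.3 and 13.3 CPM in controls and 12.2, 5.34, 11.47 and 14.6 CPM in GOF, which overlapped. Between the sexes, unlike Csf1, Il34 was lower in every male control than in every female control. In GOF every male library was above every female library for Il34. The interaction of Il34 was called (3.14, SE 0.375, adjusted p = 0.000535), as was that of the interferon regulatory factor gene Irf8 (2.13, adjusted p = 0.000807), which averaged 54.3 and 19.1 CPM in female controls and GOF, and 17.6 and 27.1 CPM in male controls and GOF. Cebpa, a myeloid and metabolic transcription factor, fell in both sexes (-2.31 and -2.47).

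Of 19 recruitment chemokines and receptors, 1 rose and 3 fell in female GOF and 3 rose and 3 fell in male GOF. Without male GOF 1, 1 rose and 5 fell in males. Cxcl12, a chemokine that retains leukocytes in tissue, fell in both sexes. Female controls and female GOF averaged 59.6 ± 13.2 and 10.8 ± 1.61 CPM, male controls and male GOF 93.8 ± 15.9 and 20.97 ± 10.7 CPM (SD, n = 4 each). The eotaxin gene Ccl24, made by tissue macrophages, fell in both sexes too, at no more than 1.48 CPM in any library (-1.44 and -2.49, adjusted p = 0.00782 and 0.000157). Of 15 genes of engulfment, 4 rose and 1 fell in females and 5 rose and 2 fell in males; without male GOF 1 the male counts were 2 and 4. The bridging protein genes Mfge8 (0.81 and 0.58) and Pros1 (0.42 and 0.54) rose in both sexes, and the lipid scavenger gene Cd36 fell in both (-2.17 and -2.15). Of 12 inflammatory genes 9 could be tested, of which 0 rose and 1 fell in females and 1 rose and 2 fell in males. Retnla, a product of alternatively activated macrophages, fell in both; the group means of controls and GOF were 13.7 and 4.30 CPM in females, and 17.2 and 1.84 CPM in males.

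Of 8 monocyte genes, 0 rose in either sex, and 2 fell in females and 3 in males. F13a1, the coagulation factor XIII chain made by monocytes and some tissue macrophages, was at 12.5, 16.5, 17.1 and 12.8 CPM in female controls and 2.84, 5.73, 2.72 and 3.43 CPM in female GOF (log2 change -1.996, SE 0.292, adjusted p = 0.000104). In males it was at 17.2, 21.7, 34.8 and 23.1 CPM and 3.68, 6.17, 5.11 and 8.28 CPM (-2.06, SE 0.290, adjusted p = 6.58e-05). Ccr2, the chemokine receptor that defines classical monocytes, was at 4.21 to 15.5 CPM over the 16 libraries and was not called. Of 15 genes of lipid-laden macrophages, 2 rose and 5 fell in females and 3 rose and 4 fell in males; without male GOF 1, 0 rose and 6 fell in males. Trem2 (1.49 and 1.59) and Gpnmb (4.30 and 3.25) rose in both sexes, but in males neither passed without male GOF 1 (adjusted p = 0.193 and 0.749). Lpl, Fabp4, Cd9 and Ctsk of this list fell in both sexes; Fabp4 and Lpl are also fat cell genes. Of 10 T and NK cell genes 0 were called in female GOF and 3 rose in male GOF (Cd4, Cd8a and Lck), against 5 without male GOF 1. Of 7 B cell genes 1 rose in female GOF and 1 in male GOF, against 3 in males without male GOF 1. Their summed level averaged 44.9 and 75.9 CPM in female controls and GOF, and 50.7 and 126 CPM in the male groups. The part of lymphocytes in the rise of Ptprc was not tested.

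Spi1, the gene of PU.1, was at 5.71, 6.55, 7.30 and 6.58 CPM in female controls and 8.33, 8.20, 12.8 and 8.46 CPM in female GOF (log2 change 0.53, adjusted p = 0.113). In males it was at 9.45, 9.92, 12.8 and 10.3 CPM and 29.1, 16.3, 10.9 and 12.5 CPM (log2 change 0.70, adjusted p = 0.0421; 0.30 and 0.225 without male GOF 1). The groups overlapped in males and not in females.

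Some counts can be shared with other genes. Csf1r overlaps Hmgxb3 on the opposite strand, and the Cx3cr1 annotation spans several other genes, among them Wdr48 and Gorasp1. Whether the counting used strand is not given in the sources used here. Lyz2 has a near-identical neighbour, Lyz1, and the Fc receptor genes resemble each other, so their counts are less certain.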

How the data were processed

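RNA from whole adrenal glands of 16 mice was sequenced. Reads were processed with Bowtie2 2.2.3, TopHat2 2.0.12, HTSeq 0.6.1 and DESeq 1.18.0, per the submitters' processing notes. The genome build, the annotation and the strand setting are not given in the sources used here. The authors deposited a table of raw read counts per gene and a table of FPKM. FPKM divided by counts gave 1 length per gene, within 1% of the mean GENCODE M21 transcript length for 96.8% of 18723 genes, and 54809 of 54838 identifiers were in that release. Symbols came from GENCODE M21.

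Counts were fitted with edgeR 4.0.16 (R 4.3.3): filterByExpr over the 4 groups, TMM factors, a robust quasi-likelihood fit of 4 group means over all 16 libraries, and 5 contrasts (GOF against control in each sex, males against females in each genotype, and their interaction). Calls used a Benjamini-Hochberg adjusted p under 0.05 over all 18214 genes tested, so a change is a log2 fold change from counts. FPKM was used for levels between genes and, with limma 3.58.1, as an alternative on log2(FPKM + 1) and log2(FPKM + 0.1) for genes with a mean FPKM of at least 0.5. Other alternatives were RLE and upper-quartile factors, DESeq2 1.42.0, a filter of at least 10 counts in every library or none at all, fits of the compared groups alone, leaving out each library, leaving out 2 or 3 libraries that stood apart, and the animal-number range as a covariate. Replicate numbers follow accession order and only name libraries. The scripts were tested on simulated data. The members and lists were chosen with earlier results of these data known.

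Per-library values were given for Csf1r, Adgre1, Cd68, C1qa, Lyve1, Timd4, Mrc1, Itgam and Ptprc, and for up to 4 genes with the highest and 4 with the lowest change per comparison among those called whose groups did not overlap; from other lists, up to 3 genes per direction at 1 CPM or more. Values for Cx3cr1, Msr1, Tyrobp, Spi1, Vsig4 in females, Ctss, Marco and Ccl24 outside that rule were added after seeing them. Ccl21a, whose symbol has more than 1 identifier, was left out.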

Additional observations from a re-analysis of the deposited data

Results flagged for a closer look

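In each group of 4 libraries the highest or lowest value was compared with its nearest neighbour, relative to the range of the group. Of 128 such groups (32 genes in 4 groups), 17 had a value standing apart, and 12 of the 17 were in male GOF 1. For a single group chance gives about 1 in 20. The genes vary together within libraries, so the 12 are not independent of each other. In male GOF 1 these were Csf1r at 87.3 CPM, Cd84 at 31.9 CPM, C1qb at 163 CPM, C1qc at 177 CPM and Tyrobp at 57.0 CPM. The same held for Cd68 at 96.1 CPM, Msr1 at 25.0 CPM, Cd5l at 45.4 CPM and Mertk at 51.6 CPM. Lyz2 at 885 CPM, Mpeg1 at 302 CPM and Ctss at 309 CPM completed the 12.

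Elsewhere, Spi1 stood apart at 12.8 CPM in female GOF 3 and Aif1 at 8.996 CPM in male control 3. Fcgr1 was low at 5.13 CPM in female GOF 2. Marco stood apart at 12.7 CPM in male GOF 2 and at 0.269 CPM (9 counts) in female GOF 3. Among the summed lists, hepatocyte genes stood apart at 8892 CPM in male control 2 and kidney tubule genes at 1065 CPM in female control 1. T and NK cell genes did so at 57.3 CPM in male GOF 2 and at 8.41 CPM in female control 1. Neutrophil genes did so at 205 CPM in male GOF 2, 128 CPM in female GOF 1 and 106 CPM in male control 2.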

How the results depend on the processing

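No paired analysis was possible because the labels give no replicate numbers shared between groups. Lyve1, Cd163 and Cd84 (GOF against control) kept their direction and call in both sexes under all 27 alternatives to which each was put. With no filter, 3 members were higher in female GOF (6.80% of all genes), 11 were called in male GOF (8 higher; 6.99%), and 8 were called, all higher (4.25%), for males against females in controls. With only the groups compared, and with limma on log2(FPKM + 0.1), 10 were higher in female GOF (16.8% and 26.5%). With at least 10 counts in every library, 27 members were tested and 2 were lower in male GOF (20.6%); Vsig4 and Folr2 did not pass that filter. Without female control 1 and male control 2, 5 members were called in female GOF (3 higher; 15.4% of all genes) and 11 in male GOF (9 higher, 2 lower; 10.2% and 17.8%). Without these and male GOF 1, 14 were called in female GOF (12 higher and 2 lower, against 13% and 20.1% of all genes). In male GOF 10 were then called (8 higher and 2 lower, against 9.35% and 18.9%). With the number range as a covariate, all genes called fell from 4267 to 1311 between the sexes in controls and from 5394 to 1336 in GOF. In that fit sex and range are told apart only through the range that holds both sexes.

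With each library left out in turn, 4 to 16 members were called in female GOF (1 to 13 higher, 2 to 3 lower). In these fits 11.8% to 19% of all genes were higher and 18.1% to 22.1% lower. In male GOF 8 to 20 members were called (6 to 17 higher, 2 to 4 lower), against 10.3% to 14.6% and 17.8% to 22.2% of all genes. In the control comparison of the sexes 7 to 17 members were called, all higher, against 7.4% to 16% of all genes called higher.

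Signs turned only where the main value was not past the threshold. The interaction of Csf1r (-0.02) ranged from -0.30 to 0.14 without 1 library, and was 0.016 with RLE factors and with DESeq2, 0.022 with no filter, 0.078 with upper-quartile factors, 0.054 with at least 10 counts, 0.066 and 0.034 with limma at pseudocounts 1 and 0.1, and 0.031 with the number range as a covariate. Lyve1 in controls ranged from -0.17 to 0.18 without 1 library and was 0.74 with the covariate. Itgam between the sexes in GOF was -0.25 with the covariate. Cd68 between the sexes in GOF ranged from -0.15 to 1.30 without 1 library and was -0.14 without the 3 libraries; its interaction ranged from -0.61 to 0.84 and was -0.53. Without 1 library, Timd4 in male GOF ranged from -0.33 to 0.70, and the interactions of Mrc1 and C1qa from -0.0087 to 0.39 and from -0.040 to 0.41. The median interaction of the members ranged from -0.10 to 0.36, and without the 3 libraries it was -0.030, with Mrc1 at -0.014. The cause was not tested.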
